A study of Mus musculus with 6 samples.

Results

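The genes described here are the RNA polymerase subunit genes, chosen by their symbol (Polr1, Polr2 or Polr3 followed by a letter). They were 28 of the 21851 genes in the deposited tables, which hold 6 libraries of sorted mouse bone marrow cells. Of these, 3 encode subunits found only in RNA polymerase I (Pol I), 8 subunits or associated proteins of RNA polymerase II (Pol II), and 10 subunits of RNA polymerase III (Pol III). A further 2 are shared by Pol I and Pol III, and 5 by all of the enzymes. Some subunits of these enzymes carry older symbols and are treated apart (Cd3eap, Twistnb, Znrd1 and Crcp).

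Eukaryotic cells transcribe their nuclear genes with 3 RNA polymerases. Pol I makes the large precursor of ribosomal RNA, Pol II makes mRNA, and Pol III makes tRNA, the smallest ribosomal RNA and other short RNAs. Each enzyme is built around its own pair of large catalytic subunits. Pol I and Pol III share an assembly platform, and all of them share a set of small subunits. Stem cells of the blood are known for a low rate of protein synthesis, for which Pol I and Pol III supply the RNA of the machinery.

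Sequenced RNA came from long-term haematopoietic stem cells (LT-HSCs), which renew the blood for life, sorted out of wild-type mouse marrow. For 3 months before the sort the mice ate a control diet (CD, 3 libraries), or else a diet high in cholesterol, labelled HCD (3 libraries). The sort kept lineage-negative cells positive for KIT and SCA1 and negative for CD34 and CD135. The labels used here give neither age nor sex, and do not say whether a library is 1 animal or a pool, so the p-values reflect how far these libraries spread within a diet, and that spread may be technical. Values are FPKM (fragments per kilobase of transcript, scaled to the mapped total of a library), which allow levels of different genes to be set side by side.

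The step that 1 read makes in low values put the libraries at an estimated 18800000 to 19960000 reads or fragments each. HCD replicate 2 stood apart, at -14.7 on the second principal component against 7.81 and 10.1 for the other HCD libraries. Kit, which marks the gate, averaged 120 FPKM and Ly6a (SCA1) 64.2, but Cd34 averaged 464 and Flt3 (CD135) 109, so transcripts of both markers that the gate excludes were abundant, and the libraries are called here by their label. Of 10 haematopoietic stem and progenitor cell markers 1 rose and 2 fell, with a summed level of 961 to 988 FPKM under CD and 925 to 950 under HCD. Markers of other blood cells moved with the diet. Of 8 neutrophil markers 6 were tested, and all 6 were called higher under HCD. The list had a summed level of 12.2 to 12.4 FPKM under CD and 40.1 to 48.6 under HCD. The 4 tested of 5 megakaryocyte markers were also called higher (47.2 to 51.9 against 78.7 to 93.3). That sum was carried by Itga2b, which ran from 34.5 to 66.2 FPKM. A gene under 1 FPKM throughout 1 diet could enter the test only through the other diet. In their lowest library Camp, Lcn2, Ngp, Retnlg and Gp1ba were at 0.35, 0.19, 0.90, 0.44 and 0.68 FPKM. The filter may thus have set part of these counts. The monocyte and macrophage list had 3 higher and 3 lower of 7 tested (36.7 to 38.4 against 63.3 to 72.0), and the sum was carried by Ly6c2, which ran from 8.94 to 43.3 FPKM over the 6 libraries. Of 7 T and NK cell markers 3 were tested, with 2 higher and 1 lower. Cd3e was at 0 in every library, and the list's sum (105 to 110 against 129 to 151) was carried by Nkg7, at 120 FPKM on average. The limit of the filter holds for calls in these lists too. In their lowest library Cd4 and Klrb1c were at 0.87 and 0.40 FPKM. Of the monocyte and macrophage list, C1qa, C1qb and Vcam1 were at 0.37, 0.66 and 0.37 there. B cell markers had no call (25.1 to 33.7 against 28.4 to 30.4), nor had erythroid markers (4.57 to 6.92 against 4.61 to 5.81), and in the stroma and endothelium list Pecam1, the 1 gene tested, was higher (sums of 32.0 to 35.1 against 40.6 to 44.6). The part of these cells in the values below was not tested. In bulk RNA, fewer cells of a type and less RNA per cell cannot be told apart.

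All 28 subunit genes were expressed in every library and passed the filter of 1 FPKM. In 22 of them the mean level over the 6 libraries was above the median of all tested genes (12.7 FPKM). The highest were Polr2e, a small subunit shared by all of the enzymes (101 ± 7.79 FPKM, SD over 6 libraries), and Polr2m, which encodes a protein that binds Pol II and competes with an initiation factor for it (94.6 ± 7.15). These neighbours in the order did not differ beyond their spread. The lowest were the Pol III genes Polr3g (6.12 ± 1.19), Polr3f (7.65 ± 0.57) and Polr3a (8.10 ± 1.24). Pol II-specific genes had a median level of 44.2 FPKM, against 16.0 for Pol I-specific and 15.0 for Pol III-specific genes. The same order held for the catalytic largest subunits, at 55.3 ± 1.88 FPKM for Polr2a, 19.9 ± 2.29 for Polr1a and 8.10 ± 1.24 for Polr3a. It did not hold for the second largest subunits, at 40.1 ± 2.24 FPKM for Polr2b, 16.0 ± 2.20 for Polr1b and 17.8 ± 0.68 for Polr3b. Within Pol III the levels ran from 6.12 FPKM in Polr3g to 29.3 in Polr3k, which encodes the subunit used in RNA cleavage and termination. The estimated number of reads per library at the CD mean went from about 137 for Polr2k, the shortest transcript, to about 7208 for Polr2a. At the HCD mean, counting error alone was 8.13% of the level for Polr2k and 1.18% for Polr2a.

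**Figure D1:**
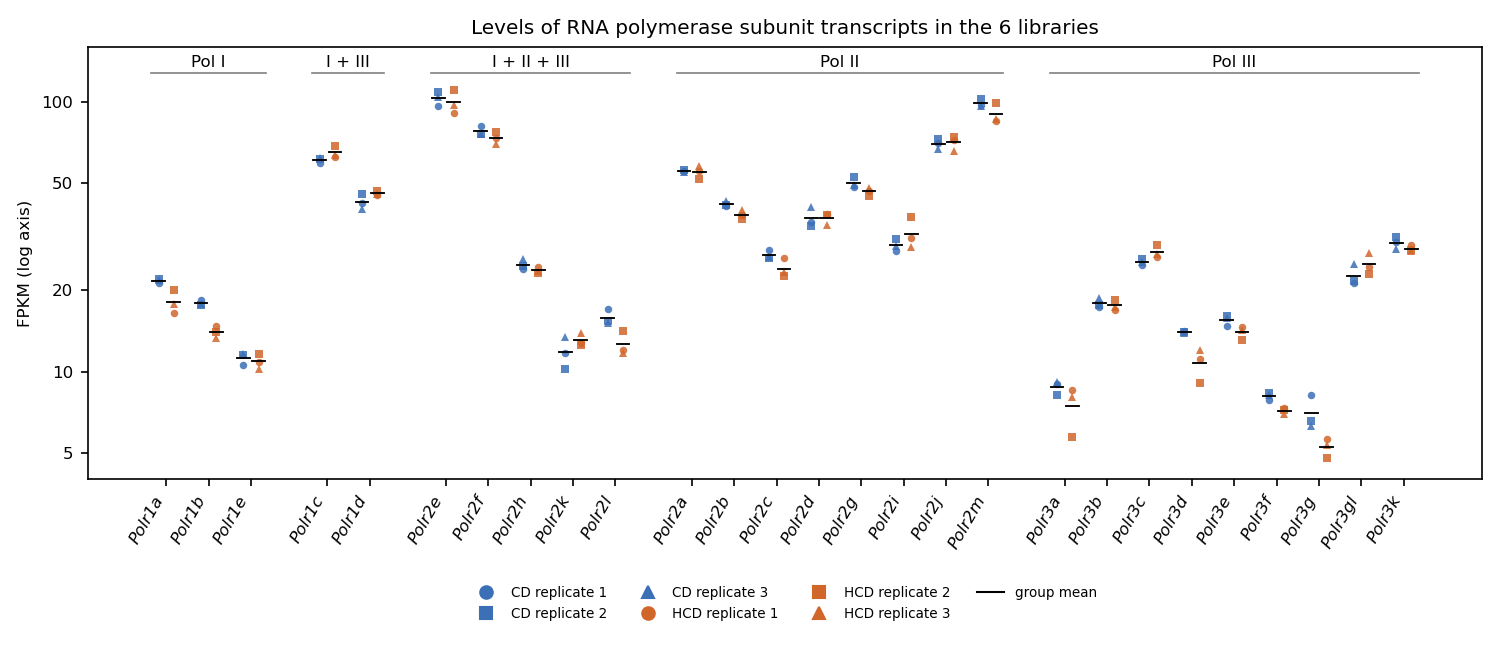
FPKM on a log axis for 27 of the 28 subunit genes in the 3 CD (blue) and 3 HCD (orange) libraries, grouped by the enzyme that contains the subunit. Black bars are group means. The shared Polr2e and Polr2f and the Pol II genes Polr2m and Polr2j are the most abundant, and Polr3g, Polr3f and Polr3a the least.

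The promoters of the subunit genes that fell under HCD are shown first, since these genes are the ones the results turn on. Each line gives the 250 bases before the RefSeq transcript start (GRCm38.p6), 5′ to 3′ on the strand of the gene. Capitals mark matches on either strand to motifs searched by their letters. The E-box was searched as CACGTG and the GC box as GGGCGG. The site of ETS factors was searched as CCGGAAG. The CCAAT and TATAAA boxes were searched by those letters, and the sites of NRF1 and YY1 by a consensus without mismatch. The windows are Polr1a at chr6:71908803-71909052 on the plus strand, Polr1b at chr2:129100746-129100995 on the plus strand, and Polr2l at chr7:141475154-141475403 on the minus strand. Polr3d has no entry among the promoters used, so its promoter was not searched for motifs.
Polr1a: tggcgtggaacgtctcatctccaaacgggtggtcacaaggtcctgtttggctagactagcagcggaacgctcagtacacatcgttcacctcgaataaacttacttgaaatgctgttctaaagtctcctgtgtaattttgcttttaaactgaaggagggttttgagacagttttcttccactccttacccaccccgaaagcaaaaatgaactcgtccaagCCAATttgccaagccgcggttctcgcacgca
Polr1b: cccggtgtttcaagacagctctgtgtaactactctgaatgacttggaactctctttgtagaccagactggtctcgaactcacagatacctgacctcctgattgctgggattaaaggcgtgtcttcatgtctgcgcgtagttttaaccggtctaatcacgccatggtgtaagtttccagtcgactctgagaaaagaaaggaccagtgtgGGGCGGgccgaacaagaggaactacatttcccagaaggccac
Polr2l: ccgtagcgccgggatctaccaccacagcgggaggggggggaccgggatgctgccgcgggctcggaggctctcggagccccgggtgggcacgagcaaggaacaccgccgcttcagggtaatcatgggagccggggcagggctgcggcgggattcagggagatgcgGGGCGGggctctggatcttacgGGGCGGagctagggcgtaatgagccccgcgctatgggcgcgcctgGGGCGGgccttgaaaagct

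These windows differ from each other in base composition, with 47.6% G and C in Polr1a, 49.6% in Polr1b and 71.2% in Polr2l (median of all windows, 52.4%). Polr2l holds 3 GC boxes and Polr1b 1, whereas Polr1a holds a CCAAT and no GC box. Of the 22 subunit genes with an entry, counting a gene if any of its windows has the match, 14 hold a GC box (32.7% of all 32851 windows do) and 7 a CCAAT (33.9%). An ETS match is in 5 of the 22 (6.91% of all windows), among them Polr3g. An E-box is in 2, Polr3c and Polr3gl (6.02%), and TATAAA in 2, Polr2a and Polr2c (12.4%). Neither the NRF1 nor the YY1 consensus occurs in any of the 22 (0.782% and 0.301% of all windows). No searched motif was present in all 3 of the printed windows. A match is a run of letters and not a shown binding site.

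The comparison of HCD with CD asks whether the diet alters transcripts of the enzymes. Under HCD 4 of the 28 subunit genes fell and 0 rose (limma on log2(FPKM + 1), Benjamini-Hochberg adjusted p under 0.05 over 10676 tested genes). They were the catalytic subunits of Pol I, Polr1a and Polr1b, the Pol III subunit Polr3d, and Polr2l, which all of the enzymes share. Of all tested genes 13.9% were called (6.28% higher and 7.66% lower), so the 14.3% of subunit genes called is near that background. The split of calls over all genes, 670 higher and 818 lower, turned to 790 and 601 with TMM factors and to 780 and 579 once the length trend of each library was subtracted. At an unadjusted p under 0.05, 8 subunit genes were lower and 0 higher (30.9% of all genes pass in either direction). The median log2 change of the 28 genes was -0.07, against -0.03 for all tested genes, with single genes from -0.36 to 0.14. The diets did not overlap in 12 of the 28 genes, 10 lower and 2 higher under HCD. That is 42.9%, where 37.7% of all genes did not overlap (22.7% lower and 15.0% higher).

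**Figure D2:**
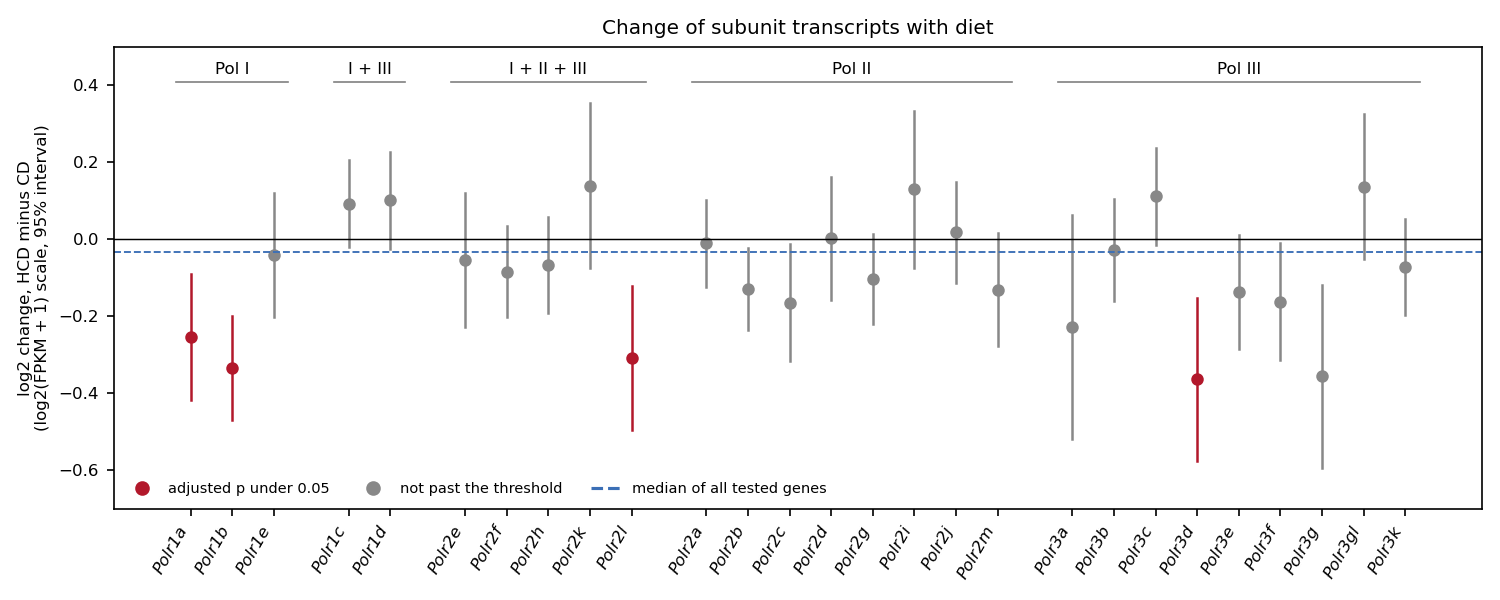
Log2 change of 27 of the 28 subunit genes, HCD minus CD, on the log2(FPKM + 1) scale with its 95% interval from limma. Red genes passed an adjusted p of 0.05 (Polr1a, Polr1b, Polr2l and Polr3d), grey genes did not, and the dashed line is the median of all tested genes (-0.03).

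Pol I showed the lower level in both of its catalytic subunits. Polr1b, the gene of the second largest subunit (chromosome 2, 129100995 to 129126594, GRCm38), was at 18.4, 17.6 and 17.8 FPKM in the CD libraries and at 14.8, 13.98 and 13.3 in the HCD libraries. Every HCD library was below every CD library, and HCD replicate 2 lay between the others. The means were 17.9 ± 0.39 and 14.03 ± 0.73 FPKM (SD, n = 3 each), a level 21.8% lower (log2 change -0.33, SE 0.06, limma adjusted p = 0.00964). The call held in 14 of 15 alternatives and was missed without CD replicate 1 (limma adjusted p = 0.0541).

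Polr1a encodes the largest subunit of Pol I, which carries the active site (chromosome 6, 71909053 to 71984935). It was at 21.3, 22.03 and 21.9 FPKM under CD and at 16.5, 20.02 and 17.8 under HCD. The groups did not overlap, but HCD replicate 2 was closest to the CD libraries. The means were 21.7 ± 0.41 and 18.1 ± 1.77 FPKM (log2 change -0.25, SE 0.07, limma adjusted p = 0.0499), so this gene passed just inside the threshold. Without HCD replicate 2 the log2 change was -0.32 (adjusted p = 0.00281). The call held in 3 of 15 alternatives. It was lost with TMM factors (adjusted p = 0.0917), with quantile normalization (0.0773), and without any of the other 5 libraries (adjusted p from 0.101 to 0.149).

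Polr1a has the longest transcript of the subunit genes, 9216 bases, and longer transcripts were lower under HCD over all genes, as given below. With the trend against length removed the log2 change of Polr1a was -0.11 (adjusted p = 0.482), and that of Polr1b was -0.29 (adjusted p = 0.0165). Polr1e, the third gene with a Pol I-only symbol, encodes a subunit that helps the enzyme bind and elongate. It was at 11.2 ± 0.55 FPKM under CD and 10.9 ± 0.71 under HCD, with overlapping groups (log2 change -0.04, 95% interval -0.20 to 0.12, adjusted p = 0.734).

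The summed level of these Pol I-specific genes was 50.2, 51.2 and 51.2 FPKM in the CD libraries and 42.1, 45.7 and 41.3 in the HCD libraries. All HCD sums were below all CD sums, and the mean sum was 15.4% lower. The sum is a description and was not tested.

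Under older symbols, Cd3eap, which pairs with the Polr1e product in Pol I, also fell. It was at 18.2, 17.9 and 18.2 FPKM under CD and at 13.0, 16.6 and 12.8 under HCD (log2 change -0.34, SE 0.09, adjusted p = 0.0430). As in Polr1a, HCD replicate 2 was the library nearest to CD, and without it the log2 change was -0.46 (adjusted p = 0.000397). Without any other library the call was lost (adjusted p from 0.10 to 0.135), as it was with TMM factors (0.0709) and quantile normalization (0.0733). Of its exon bases 4.3% overlap the gene Ercc1 on the other strand. The other Pol I subunits under older symbols were not called: Twistnb, a stalk subunit, was at 24.5 ± 1.62 and 23.6 ± 1.56 FPKM, and Znrd1, which serves RNA cleavage, at 35.9 ± 1.38 and 33.4 ± 2.16.

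Among 8 factors that start or end Pol I transcription, 1 fell and 0 rose (12.5%, against 13.9% of all tested genes), with a median log2 change of -0.09. The gene was Ubtf, whose product binds ribosomal DNA and recruits the enzyme. It was at 51.5, 51.2 and 51.3 FPKM under CD and at 43.1, 45.4 and 42.9 under HCD, without overlap (log2 change -0.22, SE 0.04, adjusted p = 0.0132). The call was lost with the length trend removed (log2 change -0.17, adjusted p = 0.0756). It was also lost without any of the CD libraries (0.0596 to 0.0676) or without HCD replicate 1 (0.0567). Rrn3, the factor that ties Pol I to its promoter complex, was at 19.9 ± 0.64 and 18.9 ± 0.41 FPKM and did not pass (adjusted p = 0.357).

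**Figure D3:**
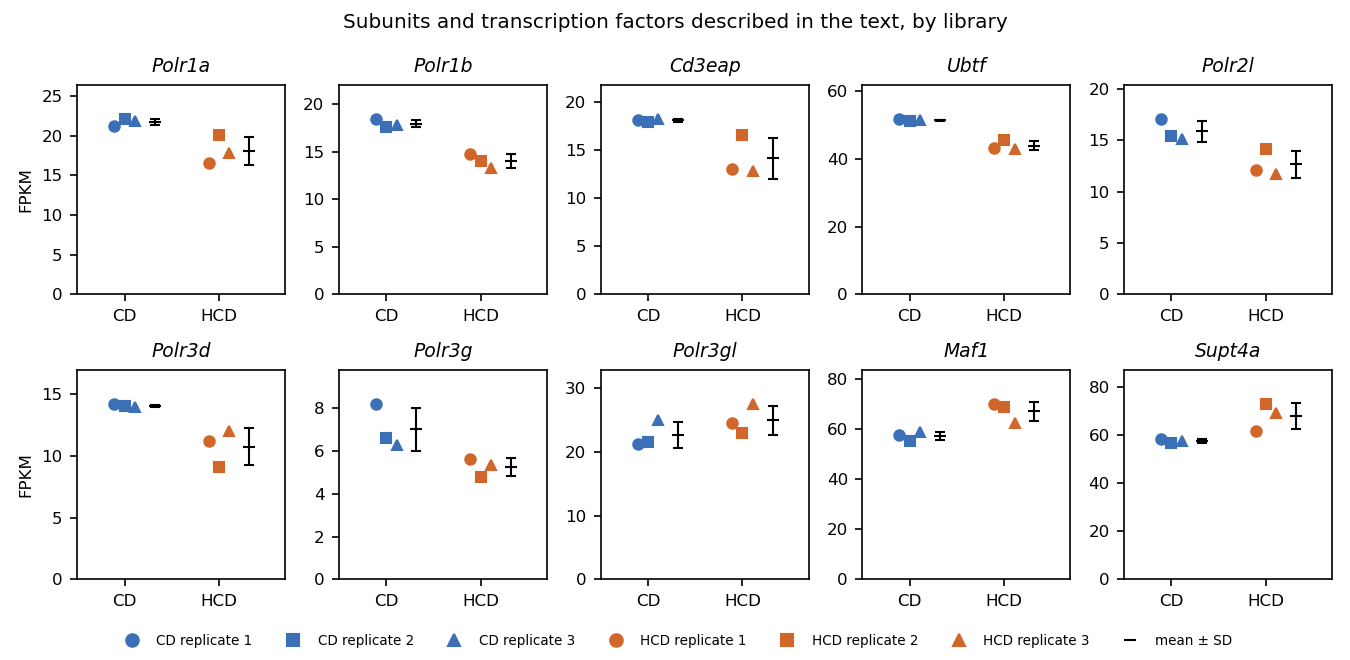
FPKM in each library for the Pol I genes Polr1a, Polr1b, Cd3eap and Ubtf, the subunit genes Polr2l, Polr3d, Polr3g and Polr3gl, and the factors Maf1 and Supt4a, with mean ± SD beside the points and axes from 0. The 6 genes Polr1a, Polr1b, Cd3eap, Ubtf, Polr2l and Polr3d were lower in every HCD library than in every CD library, and Maf1 and Supt4a were higher.

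The subunits shared by Pol I and Pol III went the other way in value, without a call. Polr1c and Polr1d encode the pair on which assembly of both enzymes begins, and in humans both are genes of Treacher Collins syndrome. Polr1c was at 59.5, 61.4 and 61.9 FPKM under CD and at 62.7, 68.9 and 63.7 under HCD (log2 change 0.09, 95% interval -0.02 to 0.21, adjusted p = 0.235). Polr1d averaged 42.7 ± 2.81 and 45.9 ± 0.95 FPKM, and its groups overlapped (log2 change 0.10, 95% interval -0.03 to 0.23, adjusted p = 0.250). The level of Polr1a relative to Polr1c in the same library was 0.357, 0.359 and 0.353 under CD and 0.264, 0.290 and 0.279 under HCD. All HCD ratios were below all CD ratios. This ratio was chosen after its values were seen and was not tested. Polr1a (9216 bases) and Polr1c (1314 bases) lie in length classes where the median log2 change of all genes was -0.10 and 0.03. The part of length in the ratio was not tested.

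Of the 5 genes whose products sit in all of the enzymes, 1 fell and 0 rose (20%, against 13.9% of all tested genes). Their median log2 change was -0.07. Polr2l, a small zinc-binding subunit (chromosome 7, 141471860 to 141475132), was at 17.0, 15.4 and 15.1 FPKM under CD and at 12.1, 14.1 and 11.7 under HCD. The groups did not overlap, and HCD replicate 2 was again nearest to CD. The means were 15.8 ± 1.01 and 12.6 ± 1.30 FPKM (log2 change -0.31, SE 0.08, adjusted p = 0.0403). The call held in 6 of 15 alternatives, among them the removal of the length trend (log2 change -0.32, adjusted p = 0.0293) and the fit without HCD replicate 2 (-0.38, adjusted p = 0.00299). It was lost with TMM factors (0.0682), with quantile normalization (0.0818) and without any other library (0.0942 to 0.155).

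The remaining shared subunits did not pass. Polr2e was at 103 ± 6.41 and 99.6 ± 10.04 FPKM (adjusted p = 0.668), Polr2f at 78.0 ± 2.92 and 73.6 ± 3.65 (0.307) and Polr2h at 24.9 ± 1.19 and 23.8 ± 0.64 (0.438). Polr2k, another small zinc-binding subunit and the shortest transcript at 601 bases, was at 11.8 ± 1.58 and 13.0 ± 0.75 FPKM (adjusted p = 0.346), and it has a processed pseudogene copy, so its level is uncertain. In each of these genes the groups overlapped.

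None of the 8 Pol II-specific genes passed by limma (0 higher, 0 lower), where 13.9% of all tested genes did. At an unadjusted p under 0.05, 2 passed, Polr2b and Polr2c, both lower (30.9% of all genes pass in either direction). The median log2 change of the 8 genes was -0.06. Polr2a encodes the largest subunit, whose repeated tail is phosphorylated as transcription starts and proceeds. It was at 55.6, 56.0 and 54.9 FPKM under CD and at 55.7, 52.0 and 57.8 under HCD. The HCD libraries spread to both sides of the CD libraries, and the log2 change was -0.01 with a 95% interval of -0.12 to 0.10 (adjusted p = 0.910). A change of Polr2a as large as that of Polr1a (-0.25) or Polr1b (-0.33) lies outside this interval. The difference between these genes was not tested as such.

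Polr2b, the second largest subunit of Pol II, was at 41.3, 41.4 and 42.9 FPKM under CD and at 38.1, 37.0 and 39.7 under HCD. Its groups did not overlap, but the change was small (log2 change -0.13, 95% interval -0.24 to -0.02, adjusted p = 0.104). The Polr2a to Polr2b ratio was 1.33 ± 0.04 under CD and 1.44 ± 0.03 under HCD. Polr2c, which with Polr2j forms the assembly platform of Pol II, averaged 27.1 ± 1.11 and 24.1 ± 1.95 FPKM (adjusted p = 0.134), and 18.1% of its exon bases overlap Dok4 on the other strand (the strand setting of the counting is not given in the sources used here). Polr2j itself was at 70.0 ± 3.01 and 70.9 ± 4.36 FPKM.

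The stalk of Pol II, through which the new RNA leaves, is made of the products of Polr2d and Polr2g. Polr2d was at 37.1 ± 3.33 and 37.1 ± 1.93 FPKM (log2 change 0.00, 95% interval -0.16 to 0.16). Polr2g was lower in every HCD library, at 50.1 ± 2.29 and 46.6 ± 1.63 FPKM, without a call (adjusted p = 0.211). Polr2i, a subunit of transcript fidelity, had 1 HCD library above the rest, replicate 2 at 37.3 FPKM against 31.3 and 28.9, and 26.8% of its exon bases overlap Tbcb on the other strand. Polr2m averaged 98.9 ± 3.38 and 90.4 ± 7.94 FPKM and did not pass (adjusted p = 0.207). In the fit without HCD replicate 2, which held the highest HCD value (99.6 FPKM against 85.4 and 86.3), it did (log2 change -0.20, adjusted p = 0.00511).

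Of the 10 Pol III-specific genes 1 fell and 0 rose (10%, against 13.9% of all tested genes). Their median log2 change was -0.10. At an unadjusted p under 0.05, 3 were lower (Polr3d, Polr3f and Polr3g) and 0 higher. Of all genes 30.9% pass that in either direction. Polr3d encodes 1 of a pair of subunits that act in initiation and termination (chromosome 14, 70438757 to 70443447). It was at 14.2, 13.99 and 13.9 FPKM under CD and at 11.2, 9.09 and 11.98 under HCD. No HCD library reached the CD range, and here HCD replicate 2 was the lowest. The level was 23.4% lower, at 14.03 ± 0.11 and 10.7 ± 1.49 FPKM (log2 change -0.36, SE 0.09, adjusted p = 0.0355). It passed in 10 of 15 alternatives, with TMM factors and with quantile normalization among them, and without HCD replicate 2 (log2 change -0.26, adjusted p = 0.0113). It was missed without any of the CD libraries (0.107 to 0.121) or without HCD replicate 1 (0.0738).

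Its partner Polr3e was at 15.5 ± 0.72 and 14.03 ± 0.79 FPKM, lower in every HCD library but without a call (adjusted p = 0.193). The catalytic subunits of Pol III did not pass. Polr3a was at 8.99, 8.16 and 9.17 FPKM under CD and at 8.51, 5.73 and 8.07 under HCD, so that only HCD replicate 2 was well below the CD range (log2 change -0.23, 95% interval -0.52 to 0.06, adjusted p = 0.261). Without that library its change was -0.07 (adjusted p = 0.497). Polr3b was at 17.4, 17.7 and 18.7 FPKM under CD and at 16.9, 18.5 and 17.4 under HCD, with overlapping groups (log2 change -0.03, 95% interval -0.16 to 0.11).

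Polr3g and Polr3gl are paralogs that take the same place in the enzyme, in a group of 3 subunits used for initiation. Polr3g is known for its expression in embryonic stem cells and Polr3gl for that in differentiated tissues. Polr3gl was the more abundant in these libraries, at 21.3, 21.6 and 25.0 FPKM under CD and 24.5, 23.0 and 27.5 under HCD. Polr3g was at 8.16, 6.57 and 6.28 FPKM under CD and 5.61, 4.77 and 5.33 under HCD. The diets did not overlap for Polr3g and overlapped for Polr3gl.

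By the test neither passed. For Polr3g the log2 change was -0.36 (95% interval -0.59 to -0.12, adjusted p = 0.0554), just outside the threshold. In the fit with the replicate number as a block it passed (adjusted p = 0.0248). For Polr3gl the log2 change was 0.14 (95% interval -0.05 to 0.33, adjusted p = 0.294). The level of Polr3g relative to Polr3gl was 0.383, 0.304 and 0.251 under CD and 0.229, 0.207 and 0.194 under HCD. The ratios did not overlap, but CD replicate 3 lay close to HCD replicate 1, and the ratio was not tested.

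The other members of that group were Polr3c, at 25.5 ± 0.68 and 27.7 ± 1.48 FPKM with every HCD library above every CD library (adjusted p = 0.206), and Polr3f, at 8.13 ± 0.26 and 7.17 ± 0.21 with every HCD library below (adjusted p = 0.140). Crcp, a Pol III subunit under an older symbol, was at 23.3 ± 0.85 and 25.0 ± 1.42 FPKM, with overlapping groups. Polr3k was at 30.1 ± 1.55 and 28.6 ± 0.82 FPKM (adjusted p = 0.406).

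Among 16 factors that start or repress Pol III transcription, 1 rose and 0 fell (6.25%, against 13.9% of all tested genes), and the median log2 change was -0.10. The gene was Maf1, which encodes the repressor of Pol III. It was at 57.7, 55.5 and 58.7 FPKM under CD and at 69.9, 68.8 and 62.6 under HCD, without overlap (log2 change 0.22, SE 0.05, adjusted p = 0.0288). The rise held with TMM factors (0.0248) and without HCD replicate 2 (0.0178). It was lost without HCD replicate 1 (0.102) or any of the CD libraries (0.0815 to 0.114), with no filter (0.0546) and with the plain variance model (0.0604). Of the initiation factors Bdp1 was at 6.97 ± 0.19 and 5.31 ± 1.24 FPKM, with HCD replicate 2 lowest at 3.88, and did not pass (adjusted p = 0.120).

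The wider Pol II machinery was described by 3 lists, whose calls stand against 13.9% of all tested genes. Of 30 general initiation factors 2 fell and 0 rose (6.67%), with a median log2 change of -0.04. They were Gtf2e1, a subunit of TFIIE (14.5 ± 0.49 and 11.5 ± 0.48 FPKM, adjusted p = 0.0133), and Gtf2h2, a subunit of TFIIH (16.7 ± 0.47 and 13.6 ± 0.57, adjusted p = 0.0192). Without CD replicate 1 or 3 Gtf2e1 was not called (0.0676 and 0.0666), and Gtf2h2 was not called without any CD library or HCD replicate 1 (0.0619 to 0.0848). Of 24 pausing and elongation factors 1 rose and 0 fell (4.17%), with a median of -0.06. The riser was Supt4a, which with Supt5 forms a factor that holds and then speeds Pol II, at 58.7, 56.9 and 57.5 FPKM under CD and 61.9, 72.9 and 69.5 under HCD (log2 change 0.23, adjusted p = 0.0398). Its call was lost with the length trend removed (adjusted p = 0.0762), without any CD library (0.114 to 0.132) and without HCD replicate 3 (0.0895). Of 30 Mediator subunits none passed by limma (0 higher, 0 lower), with a median of -0.08. At an unadjusted p under 0.05, 3 of them passed, where 30.9% of all genes did.

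In the list of 12 factors that assemble the polymerases 2 fell and 0 rose, with a median log2 change of -0.03. That is 16.7% of the list, near the 13.9% of all tested genes. Ruvbl1, an ATPase of the assembly chaperone, was at 84.7 ± 0.71 and 72.4 ± 4.21 FPKM (adjusted p = 0.0232). Pdrg1, a prefoldin-like member of the same chaperone, was at 82.6 ± 5.04 and 70.0 ± 4.03 (adjusted p = 0.0376). With TMM factors neither was called (0.0610 and 0.0824). Without any CD library or HCD replicate 1 neither was either (0.0560 to 0.138), and Pdrg1 was not called without HCD replicate 3 (0.0863). In mitochondria a separate enzyme, the product of Polrmt, transcribes the organelle's genes. Polrmt was at 12.3 ± 0.97 and 12.1 ± 0.56 FPKM (adjusted p = 0.869). Of the 6 mitochondrial genes 1 fell (16.7%, likewise near the share of all genes), the DNA-packing factor Tfam, at 20.1 ± 0.43 and 17.4 ± 0.41 FPKM (adjusted p = 0.0391). The call of Tfam held in 4 of 15 alternatives. It was lost with the length trend removed (log2 change -0.15, adjusted p = 0.116) and with the replicate block (0.0525). TMM factors (0.0770), quantile normalization (0.0627) and the plain variance model (0.0514) also ended it. So did leaving out any library other than HCD replicate 2 (0.0784 to 0.148).

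Transcript length moved with the change in level. Over all genes Spearman's rho between length and log2 change was -0.26, and the median log2 change went from 0.03 in the shortest of 5 equal length classes to -0.10 in the longest. Over the 28 subunit genes rho was -0.49. This is a description across genes, which share libraries and are not replicates. The deviation of HCD replicate 2 from the HCD mean had a rho of -0.27 with length, and those of HCD replicates 1 and 3 had rho of 0.15 and 0.24. The part of length in the changes was not tested beyond the fit with its trend removed. Of the genes that fell, Polr2l (1650 bases) and Polr3d (2032 bases) lie in the shortest and the next class, where the medians of all genes were 0.03 and 0.00. Polr1b (3998 bases) and Polr1a lie in classes with medians of -0.05 and -0.10.

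**Figure D4:**
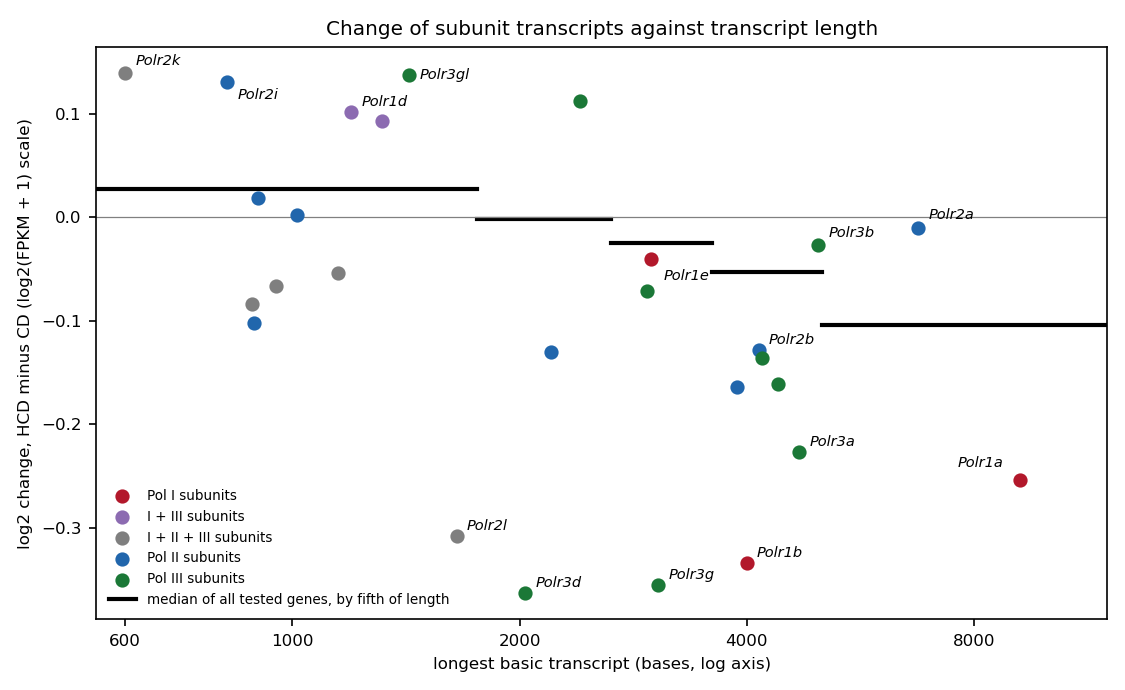
Log2 change (HCD minus CD, log2(FPKM + 1) scale) of 27 of the 28 subunit genes against the length of its longest basic transcript on a log axis, with points coloured by enzyme. Black lines are the median change of all tested genes in each of 5 length classes, from 0.03 to -0.10. Polr1b, Polr2l, Polr3d and Polr3g lie well below the line of their class.

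With the length trend removed, the median log2 change was -0.11 for Pol I-specific genes, -0.07 for Pol III-specific genes, -0.11 for subunits of all of the enzymes, and 0.07 for those shared by Pol I and Pol III. Before, these medians were -0.25, -0.10, -0.07 and 0.10. For Pol II-specific genes the median was -0.06 both before and after. The Pol I-specific median is in both fits the value of Polr1a, the middle of 3 genes, whereas Polr1b was at -0.29 with the trend removed. No test compared the enzymes with each other.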

How the data were processed

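RNA sequencing libraries of sorted LT-HSCs (3 CD and 3 HCD) were used as deposited, 1 table per library. The values the authors deposited per gene symbol were taken as FPKM. The submitters' processing notes name fastp, HISAT2, StringTie and the genome GRCm38 (mm10), without versions, annotation or strand setting. The deposited headers give only the library name, so the unit was read from the values (steps that depend on the gene) and from StringTie, and FPKM and RPKM cannot be told apart. Of 21878 rows, 27 whose symbols had become dates (0.127% of the FPKM) were left out. The values are not counts, so no count model was used.

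Genes that reached 1 FPKM in 3 or more libraries (10676) were tested with limma 3.58.1 in R 4.3.3 on log2(FPKM + 1), with a mean-variance trend and robust estimation, two-sided, with Benjamini-Hochberg adjustment and a threshold of 0.05. A fold change on this scale understates the change of low genes. Intervals are 95%. The fit was also run on simulated counts drawn without a length trend or an outlying library. That run therefore says nothing about those features of the data. Low values came out as whole multiples of 1 read, within 0.02, for only 32.3% to 37.8%, so the depth is an estimate and reads were not recovered. Transcript lengths are those of GENCODE release M21 (GRCm38), found for 97.0% of tested genes. Promoters come from RefSeq.

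Subunit genes and lists were chosen with earlier results of these data known. Values in every library are given for genes past the threshold, the catalytic subunits and the Polr3g paralogs, and up to 3 called genes are named per pathway list. The values of 1 of the 28 subunit genes are not reported here, though it is included in the counts, medians and sums. Other genes named with values (Rrn3, Bdp1, Polrmt) were chosen after their values were seen.

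The labels number the replicates 1 to 3 in both diets and do not say what a number shares. Deviations from the group means correlated at 0.10, 0.29 and 0.17 between libraries with the same number (-0.25 to 0.10 otherwise), and the number was therefore fitted as a block in an alternative. Further alternatives were a pseudocount of 0.1, no filter, a filter at 5 FPKM, TMM factors, quantile normalization, the length trend removed, a plain variance model, and each library left out. The labels give no batch.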

Additional observations from a re-analysis of the deposited data

How the results depend on the processing

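Over 15 alternatives, 390 values of single subunit genes kept their direction and side of the threshold, 27 lost the call, 3 gained one and 0 changed sign among called genes. In the named pathway genes 75 kept the call and 60 lost it. The 4 subunit genes called, all lower, became 1 with no filter (Polr1b), and 2 each with TMM factors, with quantile normalization and with the plain variance model (Polr1b and Polr3d). With libraries left out in turn the count was lowest without CD replicate 1 (0) and highest without HCD replicate 2 (5), and over all genes from 435 to 2672 (258 to 1171 higher, 177 to 1501 lower, 4.10% to 25.2% of genes tested), at the same libraries. With the replicate block it was 5, adding Polr3g, against 1873 over all genes, and the block ended the call of Tfam and changed no other named call. Median log2 changes with TMM factors were -0.0247 for Pol II-specific and -0.0733 for Pol III-specific genes. With the length trend removed, with or without the replicate block, they were -0.11 for Pol I-specific genes, -0.11 for subunits of all enzymes and -0.0696 for Pol III-specific genes. Over left-out libraries the medians ran from -0.32 to -0.19 for Pol I, 0.07 to 0.12 for subunits shared by Pol I and III, -0.12 to -0.0451 for those of all enzymes, -0.07 to -0.05 for Pol II, and -0.13 to -0.0736 for Pol III. The cause of these shifts was not tested. In every fit the Pol I median was the value of Polr1a, the middle of 3 genes. With 3 libraries a group, the interval of Polr3a (-0.52 to 0.06) includes both no change and a change as large as that of Polr1b, so the spread between libraries limits what can be said of it.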

Other observations

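The genes Polr3c and Polr3gl lie near each other on chromosome 3 (96711490 to 96727628 and 96577872 to 96594181, GRCm38) and were the 2 Pol III-specific genes with a log2 change above 0 (0.11 and 0.14). Neither passed the test, and both have an E-box match in the 250 bases before the start. HCD replicate 2 held the lowest HCD value in 11 of the 28 subunit genes and the highest in 13. The Polr3a to Polr3b ratio was 0.503, 0.310 and 0.463 in the HCD libraries, with replicate 2 lowest, against 0.516, 0.460 and 0.490 in the CD libraries. These values were picked out after they were seen and have no test.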
